A study of Mus musculus with 6 samples.

Results

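The cholesterol genes of the embryonic ovary were followed by RNA sequencing of control and panobinostat (PB)-exposed ovaries. The set comprised 32 genes by name, of 35974 gene names in the deposited transcriptome, and all 32 were among the 19435 genes that passed the filter on low counts. It held 18 genes of cholesterol synthesis, 5 regulators of the pathway and 9 genes of uptake, lysosomal transport, esterification, transfer and export. Npc2 and Hmgcs1 were placed in the set because their levels were already known to differ between the groups of these data, so their differences, and the thresholds they pass, are given as a description and support nothing. The other 30 genes belong to the set by their place in the pathway.

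Ovaries were taken at E15.5 from mice of the C57Bl6j strain, with no genetic modification named. The PB group came from dams given 5 mg/kg of PB, an inhibitor of histone deacetylases, by gavage from E6.5 to E15.5, and the control group from dams given DMSO and water. The dose was given on alternate days by the methods and per day by the sample labels. There were 3 control and 3 PB libraries of between 97165644 and 125985399 counts, each from a pool of ovaries, and the pool size is given as 4 ovaries by the sample labels, 6 to 8 by the series text and a minimum of 8 by the methods. The series text words all 6 libraries as exposed, and the groups used here come from the library names and the treatment label. The libraries were whole-ovary pools, so fewer cells of a type and less RNA per cell cannot be told apart.

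Cells build cholesterol from acetyl-CoA through mevalonate, squalene and lanosterol, and take it up in lipoproteins that are digested in lysosomes, from which NPC2 and NPC1 hand the sterol on. Transcription of the synthesis genes is driven by SREBP factors, which SCAP escorts out of the endoplasmic reticulum when sterols are scarce and INSIG proteins hold back when sterols are plentiful. Cholesterol is also the precursor of all steroid hormones, which makes the pathway of particular interest in the gonads.

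The promoter windows of 6 members are shown, to set the motifs of members that differed between the groups beside those of members that hardly did. These are Hmgcs1 and Npc2, whose levels differed most clearly and in opposite directions, Nsdhl and Insig1, which were lower in every PB pool, Msmo1, which shares the SREBP motif of Hmgcs1, and Mvk, which holds the most CCAAT boxes of the set and whose level hardly differed. Each window runs from 250 bases before the RefSeq transcription start to 50 bases after it in build GRCm38.p6. The positions are chr13:119690101-119690400 (+ strand) for Hmgcs1, chr12:84773063-84773362 (- strand) for Npc2, chrX:72918271-72918570 (+ strand) for Nsdhl, chr5:28071162-28071461 (+ strand) for Insig1, chr8:64733529-64733828 (- strand) for Msmo1 and chr5:114444019-114444318 (+ strand) for Mvk. Sequences read 5′ to 3′ along the strand of the gene, and capitals mark a core of the sterol regulatory element (SRE), TCACNCCA, a CCAAT box, which reads ATTGG on the other strand, and in Insig1 the E-box CACGTG.
Hmgcs1: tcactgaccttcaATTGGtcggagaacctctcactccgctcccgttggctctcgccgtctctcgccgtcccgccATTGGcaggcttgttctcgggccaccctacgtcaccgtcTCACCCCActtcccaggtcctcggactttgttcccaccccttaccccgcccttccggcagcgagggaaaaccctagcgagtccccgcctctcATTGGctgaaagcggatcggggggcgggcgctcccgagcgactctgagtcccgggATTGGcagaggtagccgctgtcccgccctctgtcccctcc
Npc2: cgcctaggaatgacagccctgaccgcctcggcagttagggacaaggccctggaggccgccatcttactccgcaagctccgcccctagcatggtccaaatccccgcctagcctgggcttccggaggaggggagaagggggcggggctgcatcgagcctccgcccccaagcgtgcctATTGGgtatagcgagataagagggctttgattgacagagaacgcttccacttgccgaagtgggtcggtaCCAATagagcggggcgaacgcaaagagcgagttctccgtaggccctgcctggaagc
Nsdhl: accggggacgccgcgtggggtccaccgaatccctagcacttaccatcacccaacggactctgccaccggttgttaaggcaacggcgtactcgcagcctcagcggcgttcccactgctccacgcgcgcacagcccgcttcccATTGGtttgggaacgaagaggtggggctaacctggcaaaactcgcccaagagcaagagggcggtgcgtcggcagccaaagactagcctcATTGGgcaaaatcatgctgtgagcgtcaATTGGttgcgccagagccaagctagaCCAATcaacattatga
Insig1: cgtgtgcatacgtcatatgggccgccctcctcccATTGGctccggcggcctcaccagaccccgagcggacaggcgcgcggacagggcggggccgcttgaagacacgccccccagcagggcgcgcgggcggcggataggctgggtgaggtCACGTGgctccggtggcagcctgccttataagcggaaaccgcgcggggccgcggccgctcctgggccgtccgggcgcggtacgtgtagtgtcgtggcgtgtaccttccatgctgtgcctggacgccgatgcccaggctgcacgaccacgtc
Msmo1: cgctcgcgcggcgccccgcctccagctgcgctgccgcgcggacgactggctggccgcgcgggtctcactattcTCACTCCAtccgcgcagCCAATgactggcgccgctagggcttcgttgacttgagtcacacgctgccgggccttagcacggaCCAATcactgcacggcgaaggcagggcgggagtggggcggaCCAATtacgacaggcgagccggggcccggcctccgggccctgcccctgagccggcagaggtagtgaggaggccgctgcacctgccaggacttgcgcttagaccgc
Mvk: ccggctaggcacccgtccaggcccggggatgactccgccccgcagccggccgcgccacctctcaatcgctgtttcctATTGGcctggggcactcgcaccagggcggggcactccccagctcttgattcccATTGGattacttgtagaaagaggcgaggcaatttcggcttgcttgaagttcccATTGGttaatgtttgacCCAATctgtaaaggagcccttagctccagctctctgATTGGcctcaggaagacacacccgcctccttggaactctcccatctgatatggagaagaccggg

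In Hmgcs1 the SRE core began 137 bases before the start, and CCAAT boxes began 237, 176 and 45 bases before and 10 bases after it. Msmo1 carried the SRE core 177 bases before the start, followed by CCAAT boxes at 160, 96 and 55 bases. The Npc2 window held no SRE core and had CCAAT boxes at 75 and 6 bases before the start. Nsdhl had 4 CCAAT boxes and Mvk 5, none of them beside an SRE core, and the Insig1 window held 1 CCAAT box at 216 bases and an E-box at 101 bases. RefSeq windows were matched for 25 of the 32 genes, and the 7 without one were Sqle, Fdft1, Fdps, Stard4, Npc1, Abcg1 and Scarb1. Both strands were searched and motifs were allowed to overlap. A CCAAT box was found in 21 of the 25 genes, including 14 of the 15 synthesis genes with a window, against 41.1% of all 27025 genes in the RefSeq table. The median GC content of the member windows was 61.3%, against 52.7% over all windows. Its part in the shares of the CCAAT box and of the other motifs was not tested. The SRE core was found in 4 genes, Hmgcs1, Msmo1, Srebf2 and Apoe, against 4.97% of all genes, and the E-box in 6, Dhcr7, Sc5d, Insig1, Scap, Hsd17b7 and Abca1, against 8.09%. The core of the lysosomal CLEAR motif, TCACGTGA, which contains the E-box, was found in 0 member windows and in 0.974% of all 32851 windows. These matches describe letters in a window, and binding was not measured.

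Genes of synthesis and of transport alike lay slightly lower in PB-exposed ovaries, each with a median log2 fold change of -0.13 when Npc2 was left out, and Npc2 was far higher. Levels were taken as gene sums, the counts of all transcripts with the same gene name, scaled by TMM to the size of each library (CPM) and compared with edgeR's quasi-likelihood test over all genes. Of the 30 genes other than Npc2 and Hmgcs1, 26 had a log2 fold change below 0, or 86.7%, against 49.3% of all genes tested. The PB pools did not overlap the control pools in 10 of the 30, lower in each case (33.3%, against 5.61% of all genes), and 0 were higher without overlap (against 5.1%). An unadjusted p under 0.05 was reached by 9 of the 30, again all lower (30%, against 2.43% of all genes), and by 0 with a higher level (against 2.03%). A Benjamini-Hochberg false discovery rate (FDR) of at most 0.05 was reached by 0 of the 30 with edgeR or DESeq2, and by 5 genes in all with edgeR (0.0257%). Of these 5, 2 were the genes chosen for their difference, Hmgcs1 among those that were lower (0.0103% of all genes) and Npc2 among those that were higher (0.0154%), and Npc2 had a fold change above 2 as well (0.0154%). With DESeq2's Wald test the members past this FDR were the same 2. The median log2 fold change was -0.13 over the 32 genes and 0.002 over all genes tested. The members were measured in the same libraries and are not independent of each other, so no test was made over the list.

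**Figure D1:**
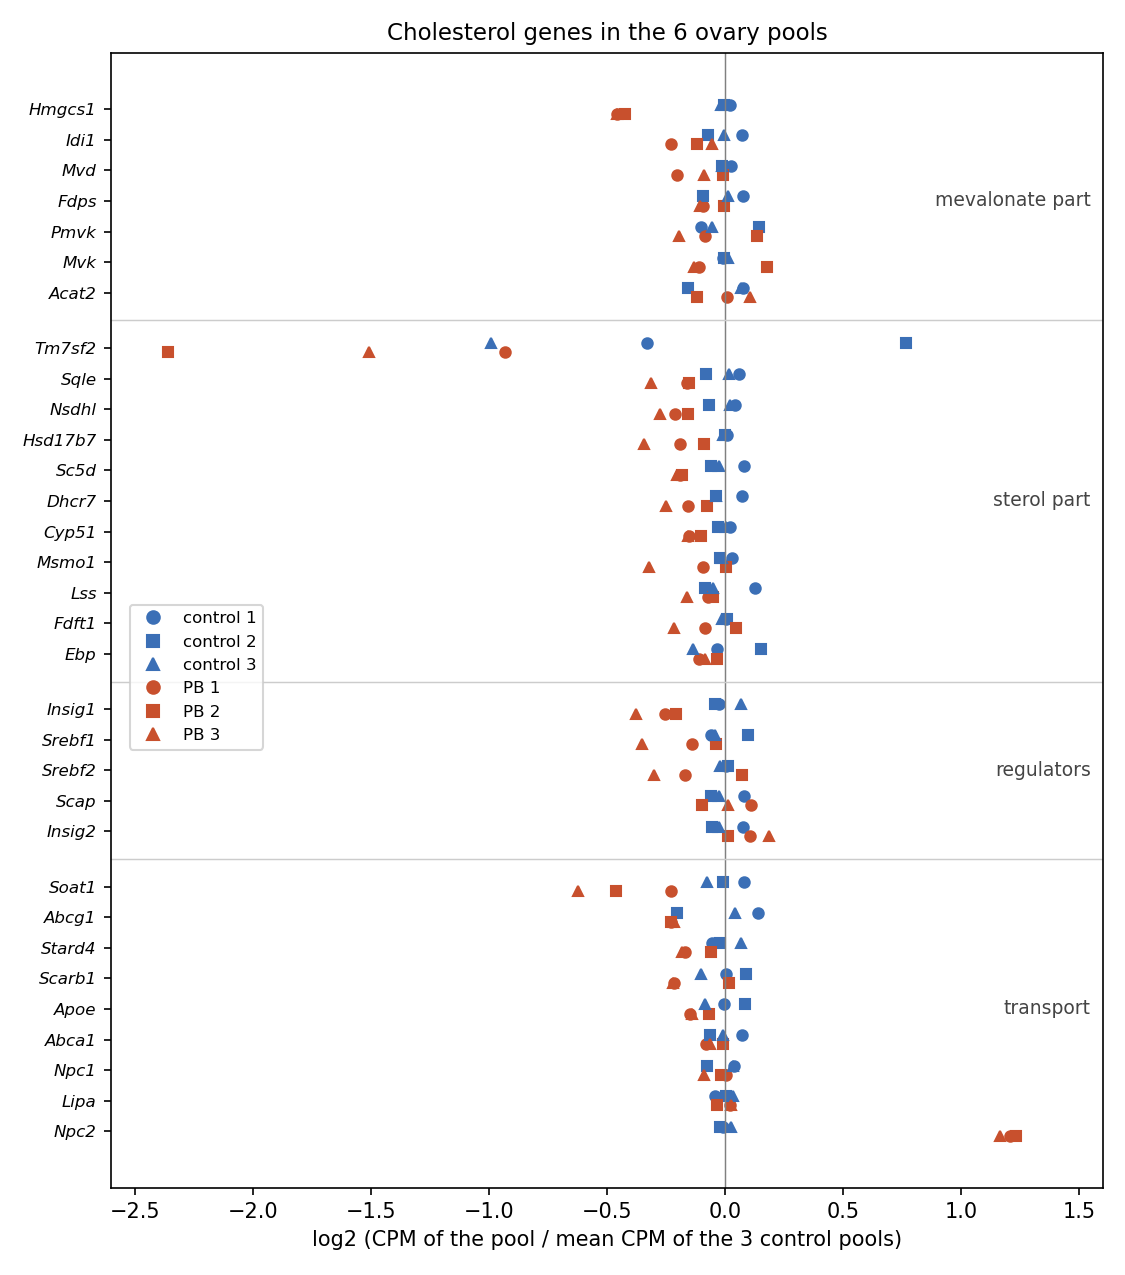
Level of each of the 32 genes in every pool, as log2 of its CPM over the mean CPM of the 3 control pools (horizontal axis, log2 units), grouped by role, with blue symbols for control and red symbols for PB pools. Npc2 stands alone on the right, Hmgcs1 and Soat1 lie left of their control pools, and most sterol genes lie slightly left, with PB 3 lowest of the PB pools in 21 of the 32 genes. Tm7sf2 spreads widely in both groups.

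Divided by role, the sterol part of synthesis, from squalene to cholesterol, was the most uniform. All 11 of its genes had a log2 fold change below 0, with a median of -0.16, 6 of them without overlap and 7 with an unadjusted p under 0.05. Of all genes tested, 49.3% lay below 0, 5.61% were lower without overlap and 2.43% were lower with an unadjusted p under 0.05. In the mevalonate part, from acetyl-CoA to farnesyl diphosphate, 6 of 7 genes lay below 0 with a median of -0.067, and 1 gene, Hmgcs1, did not overlap. Of the 5 regulators 3 lay below 0 with a median of -0.13. Among the 9 transport genes 7 lay below 0 with a median of -0.12, and 3 were lower without overlap. Over the 18 synthesis genes together the median was -0.13, which is 8.65% lower, and their summed level was 807 to 852 CPM in the control pools and 706 to 748 CPM in the PB pools. Without Hmgcs1 the other 17 summed to 592 to 633 CPM in control and 549 to 587 CPM in PB, and the ranges still did not overlap. Transport genes without Npc2 summed to 752 to 794 CPM in control and 650 to 701 CPM in PB. Soat1 held the largest part of this sum, with a mean of 231 CPM in control and 171 CPM in PB. It was the only 1 of these 8 genes with an unadjusted p under 0.05, and its difference depended on which transcripts were summed.

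Hmgcs1, which encodes the cytosolic synthase that makes HMG-CoA, was the most abundant gene of the mevalonate part per exon length and lay at nearly 1 level in all PB pools, below control. Its level was 219, 215 and 213 CPM in control 1, 2 and 3 and 157, 161 and 157 CPM in PB 1, 2 and 3. The groups were far apart relative to their spread, with a coefficient of variation of 1.33% in control and 1.41% in PB. The log2 fold change was -0.44 (SE 0.037), or 26.5% lower. The gene lies on chr13:119690351-119708260 on the plus strand, in mm10 coordinates as deposited.

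The division of Hmgcs1 among its transcripts moved more than its sum. In PB 1, 2 and 3 the assembled transcript MSTRG.5265.3 had 8901, 7941 and 8817 counts, and in each control pool it had 0. It held 57% of the gene's counts in PB 1 and 48.2% in each of PB 2 and PB 3. The leading known transcript, XM_006517578.1, went from 17069, 18948 and 15148 counts in control to 5244, 7132 and 8632 in PB, or from 76.7% to 41.7% of the gene. NM_145942.5 had 2779, 3629 and 3710 counts in control and 1310, 1260 and 820 in PB, and NM_001291439.1 had 1663, 2518 and 1230 in control and 151, 140 and 11 in PB. None of these 4 transcripts had overlapping groups.

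Relative to XM_006517578.1, MSTRG.5265.3 skips a 158-base exon in the 5′ UTR, at chr13:119694890-119695047, which NM_001291439.1 also lacks. It further carries a 74-base gap at chr13:119706828-119706901, inside the last exon in the 3′ UTR, that none of the 3 known transcripts has. Introns usually begin with GT and end with AG. The 74-base stretch begins with AA and ends with GA in the GENCODE vM21 transcripts, and because the flanks repeat it can be placed in 9 equivalent positions, 0 of which begin with GT and end with AG. Whether the gap is a splicing event or a difference in sequence between the pools was not tested, so the counts of MSTRG.5265.3 and of the known transcripts are given as an assignment of reads and not as levels of spliced forms. Both differences lie outside the coding part of the gene. Since StringTie divides the reads of a locus by coverage, the shares depend on the transcripts it was given. Summed over known transcripts alone, the log2 fold change of Hmgcs1 was -1.48, and with each transcript scaled by its length it was -0.39. MSTRG.5265.3 was among 104 member transcripts, of which 88 were known, 77 were tested and 9 had an unadjusted p under 0.05 (against 3.56% of all transcripts), and it was the only one past a fold change of 2 and an FDR of 0.05, against 17 of 51227 transcripts in all (0.0332%). The 9 included all 4 transcripts of Hmgcs1 and NM_023409.4 of Npc2. Both genes were chosen for their difference, so these counts support nothing about the set. DESeq2 passed 6 of 85 member transcripts, against 1.84% of all transcripts it tested. These were again all 4 of Hmgcs1 and NM_023409.4 of Npc2, with MSTRG.808.2 of Soat1, whose reads were divided differently in almost every pool. This count too rests mainly on the genes chosen for their difference.

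**Figure D2:**
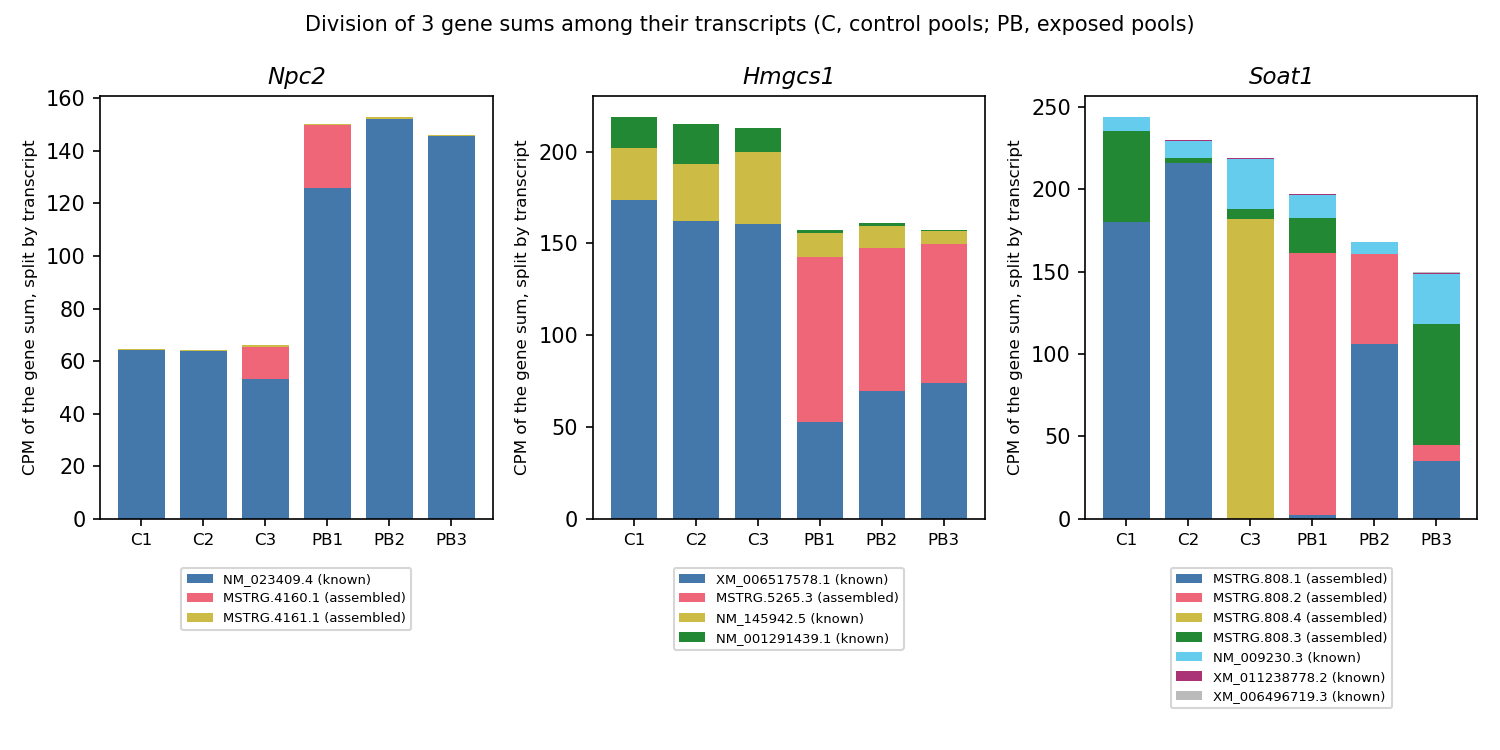
Gene sums of Npc2, Hmgcs1 and Soat1 in CPM (vertical axes from 0) in the 3 control (C) and 3 PB pools, stacked by transcript, with known RefSeq transcripts and assembled transcripts named in the keys. Npc2 is higher in PB within 1 known transcript, Hmgcs1 gains 1 assembled transcript in the PB pools as its sum drops, and Soat1 is divided differently in almost every pool.

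The other 6 genes of the mevalonate part had log2 fold changes between -0.13 and 0.0012, and all had overlapping groups. Idi1, the isomerase of isopentenyl diphosphate, was lowest at -0.13 (SE 0.068), with 38.2 ± 1.94 CPM in control and 34.9 ± 2.11 CPM in PB (SD, n = 3). Mvd, the mevalonate diphosphate decarboxylase, had 20.6 ± 0.332 CPM in control and 19.3 ± 1.32 CPM in PB, a log2 fold change of -0.093. Fdps, which makes farnesyl diphosphate, had 69.1 ± 4.15 and 65.9 ± 2.52 CPM, a log2 fold change of -0.067. The kinases Mvk and Pmvk stood at 23.9 ± 0.215 and 17.3 ± 1.61 CPM in control and had log2 fold changes of -0.014 and -0.041. Acat2, the thiolase of the opening step, had 71.4 ± 6.41 and 71.5 ± 5.5 CPM, a log2 fold change of 0.0012. The sign of Fdps, Mvk, Pmvk and Acat2 turned under some of the settings tried.

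In the sterol part, Sqle, the squalene epoxidase and a control point of the pathway, was measured at 73.7, 66.8 and 71.4 CPM in control and 63.2, 63.6 and 56.9 CPM in PB. All PB pools lay below all control pools, at -0.21 on the log2 scale (SE 0.066). Nsdhl, a sterol dehydrogenase that helps to remove the methyl groups of lanosterol, had 24.8, 23 and 24.4 CPM in control and 20.8, 21.6 and 19.9 CPM in PB. It was again lower in each PB pool, at -0.21 on the log2 scale (SE 0.062).

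Sc5d, the lathosterol desaturase, had 25.3, 23 and 23.5 CPM in control and 21, 21.1 and 20.8 CPM in PB, and its PB pools lay within 0.638% of each other as a coefficient of variation. Its log2 fold change was -0.19 (SE 0.059). Cyp51, the lanosterol demethylase, showed the same arrangement with a smaller difference. Its level was 63.7, 61.5 and 62.9 CPM in control and 56.5, 58.5 and 56.2 CPM in PB, with a log2 fold change of -0.14 (SE 0.045).

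Hsd17b7, a ketosterol reductase, had 17.1, 17 and 16.9 CPM in control and 14.9, 16 and 13.4 CPM in PB. The control pools were almost equal and the PB pools spread below them, with a log2 fold change of -0.20 (SE 0.08). Dhcr7, the reductase that completes cholesterol, had 46.9, 43.5 and 43.5 CPM in control and 40, 42.3 and 37.5 CPM in PB. The groups came close but did not overlap, with a log2 fold change of -0.16 (SE 0.065). The unadjusted p of these 6 genes lay between 0.0125 (Nsdhl) and 0.0434 (Dhcr7), and their FDR was 0.888.

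Sqle, Nsdhl and Cyp51 have a single transcript, so their sums do not depend on how reads were divided. Dhcr7 has 11, and the assembled MSTRG.17248.6, which held 50.2% of its counts in control and 20.6% in PB, went from 3352 and 3557 counts in control 1 and 2 to 6 in control 3. XM_006508479.3 held 19.1% in control and 27% in PB, and XM_011241979.1 held 18.2% and 15%. MSTRG.17248.3, MSTRG.17248.1 and MSTRG.17248.5 exceeded 5% in a group only through single PB pools or, for the first, also through control 3. Sc5d was led by NM_172769.2, with 1945, 1935 and 1616 counts in control and 1415, 1505 and 1703 in PB, and the other 3 of its transcripts were each at or near 0 in at least 1 pool. Hsd17b7 was led by NM_010476.3 with 83.1% of its counts in control and 88.7% in PB, ahead of XM_006496667.2 with 16.6% and 10.8%. No transcript of these 3 genes passed an FDR of 0.05 with edgeR. Summed over known transcripts alone, Dhcr7 had a log2 fold change of -0.047 and Sc5d one of -0.53.

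Tm7sf2, a sterol reductase, had the largest log2 fold change of the synthesis genes and the poorest measurement. Its level was 1.36, 2.91 and 0.86 CPM in control and 0.897, 0.333 and 0.602 CPM in PB, so PB 1 lay above control 3. The log2 fold change was -1.49 (SE 0.54, unadjusted p = 0.0303, FDR = 0.888), and with transcripts summed by StringTie locus it was -0.033. The remaining genes of the sterol part had overlapping groups. Msmo1, the methylsterol oxidase, had 31.3 ± 0.601 CPM in control and 28.7 ± 3.23 CPM in PB, a log2 fold change of -0.13. Lss, the lanosterol synthase, had 34.4 ± 2.82 and 32.2 ± 1.29 CPM, a log2 fold change of -0.093. Fdft1, the squalene synthase, had -0.08 and Ebp, a sterol isomerase, had -0.074, and Ebp turned its sign without control 2.

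Of the regulators, Insig1, itself a target of SREBP, was the only one without overlap. Its level was 51.3, 50.7 and 54.7 CPM in control and 43.8, 45.3 and 40.2 CPM in PB. The PB pools kept clear of the control pools, and the difference was -0.28 on the log2 scale (SE 0.064, unadjusted p = 0.00405, FDR = 0.888), or 17.5% lower. Srebf2, which encodes the SREBP most tied to cholesterol and was the most abundant regulator per exon length, had 168, 169 and 165 CPM in control and 149, 176 and 136 CPM in PB. The control pools were alike while PB 2 exceeded them all, for a log2 fold change of -0.13 (SE 0.093). Srebf1, whose SREBP also serves fatty acid synthesis, had 79.6 ± 4.76 CPM in control and 70.8 ± 7.65 CPM in PB, a log2 fold change of -0.17 (SE 0.09). The escort Scap had 124 ± 6.6 and 125 ± 9.05 CPM, a log2 fold change of 0.0078. Insig2, the second INSIG gene, had 23.6 ± 1.17 and 25.4 ± 1.52 CPM, a log2 fold change of 0.10. These 3 overlapped between the groups. The median of the regulators rested on the pools used, at -0.24 without PB 2 and -0.045 without PB 3.

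Npc2, the soluble protein of the lysosome that binds cholesterol and passes it to NPC1, had the highest log2 fold change of the set, with pools of each group close together. Its level was 64.7, 64.1 and 66.2 CPM in control and 150, 153 and 146 CPM in PB. The groups were separated by more than the whole control level, and the pools within a group varied by 1.67% in control and 2.21% in PB. The level in PB was 2.30 times that in control, a log2 fold change of 1.20 (SE 0.042). It lay between 1.17 and 1.22 under all alternatives tried.

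Nearly all of the Npc2 difference was in a single known transcript. NM_023409.4, with 4 exons, had 6303, 7431 and 5006 counts in control and 12478, 15486 and 16922 in PB and held 93.4% and 94.7% of the gene's counts. An assembled transcript with another first exon of 93 bases, MSTRG.4160.1, had 1165 counts in control 3, 2362 counts in PB 1 and 0 in the other 4 pools. An assembled transcript on the opposite strand, MSTRG.4161.1, had 44 to 64 counts in control and 11 to 100 in PB. Its counts were added to the gene sum by name and were too few to bear on it. Npc2 lies on chr12:84754559-84773112 on the minus strand, and the known start of the neighbouring gene Isca2, which is read in the other direction, is 158 bases away. Isca2 had 15.9 ± 0.901 CPM in control and 14.3 ± 1.06 CPM in PB (SD, n = 3), with overlapping groups and a log2 fold change of -0.15 (SE 0.082).

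The partners of Npc2 in lysosomal handling stood close to their control levels. Npc1, the membrane protein that receives cholesterol from NPC2, had 86.1 ± 3.75 CPM in control and 84.2 ± 2.79 CPM in PB, a log2 fold change of -0.032 (SE 0.053). Lipa, the acid lipase that frees cholesterol from its esters in the lysosome, had 43.8 ± 1.19 CPM in control and 44 ± 1.02 CPM in PB, a log2 fold change of 0.0044 (SE 0.049). For both, pools of the groups overlapped and the FDR was at least 0.923.

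Soat1, the enzyme that esterifies cholesterol for storage, had the lowest log2 fold change of the transport genes. Its level was 244, 230 and 219 CPM in control and 197, 168 and 150 CPM in PB. All PB pools lay below the control pools but were spread among themselves, and the difference was -0.43 on the log2 scale (SE 0.10, unadjusted p = 0.00462, FDR = 0.888), or 25.9% lower. Its reads were divided among 7 transcripts that came and went between pools. MSTRG.808.1 had 17745 and 25192 counts in control 1 and 2, 0 in control 3, and 248, 10800 and 4037 in the PB pools. MSTRG.808.4 had 17127 counts in control 3 and 0 in every other pool, while MSTRG.808.2 had 15723, 5579 and 1188 in PB and 0 in all control pools. MSTRG.808.3 had 5426, 360 and 586 counts in control and 2117, 0 and 8490 in PB. The known transcript NM_009230.3 had 814, 1255 and 2819 counts in control and 1374, 740 and 3526 in PB, with the groups overlapping. The log2 fold change of Soat1 therefore depended on what was summed, at -0.25 with transcripts scaled by length and 0.082 over known transcripts alone, which held 7.1% of its counts in control and 10.9% in PB.

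Abcg1 and Stard4 were also lower without overlap. Abcg1, a sterol exporter, had 13.8, 10.9 and 12.9 CPM in control and 10.7, 10.7 and 10.8 CPM in PB. Control 2 lay just above the PB pools, for a log2 fold change of -0.22 (SE 0.10). Stard4, a carrier of sterol between membranes, had 41.7, 42.7 and 45.4 CPM in control and 38.5, 41.5 and 38.1 CPM in PB, with PB 2 close to control 1. Its log2 fold change was -0.14 (SE 0.06). Apoe, an apolipoprotein and the most abundant member per exon length, had 178, 189 and 168 CPM in control and 161, 170 and 162 CPM in PB, and PB 2 lay above control 3. Its log2 fold change was -0.12 (SE 0.057). Scarb1, the receptor of high-density lipoprotein, had 73.9 ± 4.83 CPM in control and 67.3 ± 6.45 CPM in PB, a log2 fold change of -0.14 (SE 0.085). Abca1, the exporter to apolipoproteins, had 106 ± 4.86 and 102 ± 2.72 CPM, a log2 fold change of -0.055 (SE 0.051). The groups overlapped for both, and the FDR was 0.888 for these 5 genes.

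The members were compared with each other per exon length, as CPM per kilobase of exon. Apoe was highest at 133 ± 4.96 in control (SD, n = 3), followed by Hmgcs1 at 58.7 ± 1.33, Fdps at 43 ± 3.28 and Srebf2 at 34.4 ± 0.381. Acat2 followed at 34.1 ± 4.76, which does not differ from Srebf2 beyond the spread of its pools, and Sqle led the sterol part at 24.4 ± 1.62. Npc2 ranked 10 of the 32 genes in control at 19.5 ± 1.01 and stood at 45.4 in PB, next to Hmgcs1 at 46.2. The lowest were Hsd17b7 at 3.53 ± 0.062, Abcg1 at 2.04 ± 0.272 and Tm7sf2 at 1.09 ± 0.654.

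**Figure D3:**
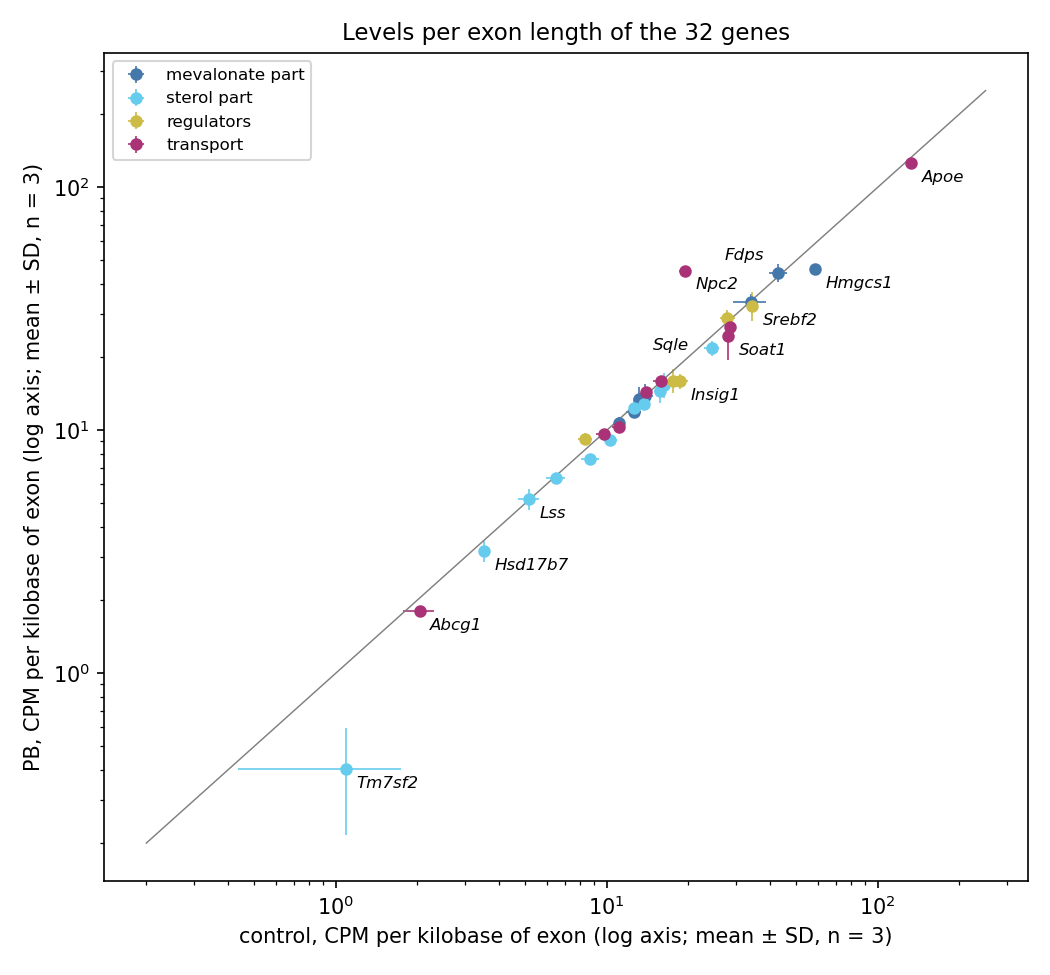
Level of each of the 32 genes in control (horizontal) and PB (vertical), in CPM per kilobase of exon on log axes, as mean ± SD over 3 pools, coloured by role, with a line of equal levels. Npc2 lies well above the line and Tm7sf2 lies below it with wide error bars, while the other genes lie near it over the whole range of levels.

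Other genes of the pathway were taken from a list beside the 32. Of 20 further cholesterol genes tested, 14 lay below 0 with a median log2 fold change of -0.09, and 0 reached an FDR of 0.05 with edgeR. An unadjusted p under 0.05 was reached by 4 that were lower and 0 that were higher, against 2.43% and 2.03% of all genes tested. Higher without overlap were 2, against 5.1% of all genes: Osbp (0.06) and Ch25h (1.34, with at most 20 counts in a pool). The 4 lower genes were also without overlap, against 5.61% of all genes that were lower without overlap. They were Erg28, a scaffold of the sterol enzymes listed as 0610007P14Rik (-0.14), Tmem97, a sterol-binding membrane protein (-0.15), Pltp, a phospholipid transfer protein (-0.26), and Soat2, a second esterifying enzyme (-0.76). All had an FDR of 0.888. Of 12 fatty acid genes that SREBP also controls, 7 lay below 0 with a median of -0.0045. Fads2, a desaturase, was the only one of them with an unadjusted p under 0.05, at a log2 fold change of -0.13 (SE 0.049, FDR = 0.888). Fasn, the fatty acid synthase, had -0.005 and Acaca, the acetyl-CoA carboxylase, 0.14. The difference between the cholesterol and fatty acid genes was not tested.

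**Figure D4:**
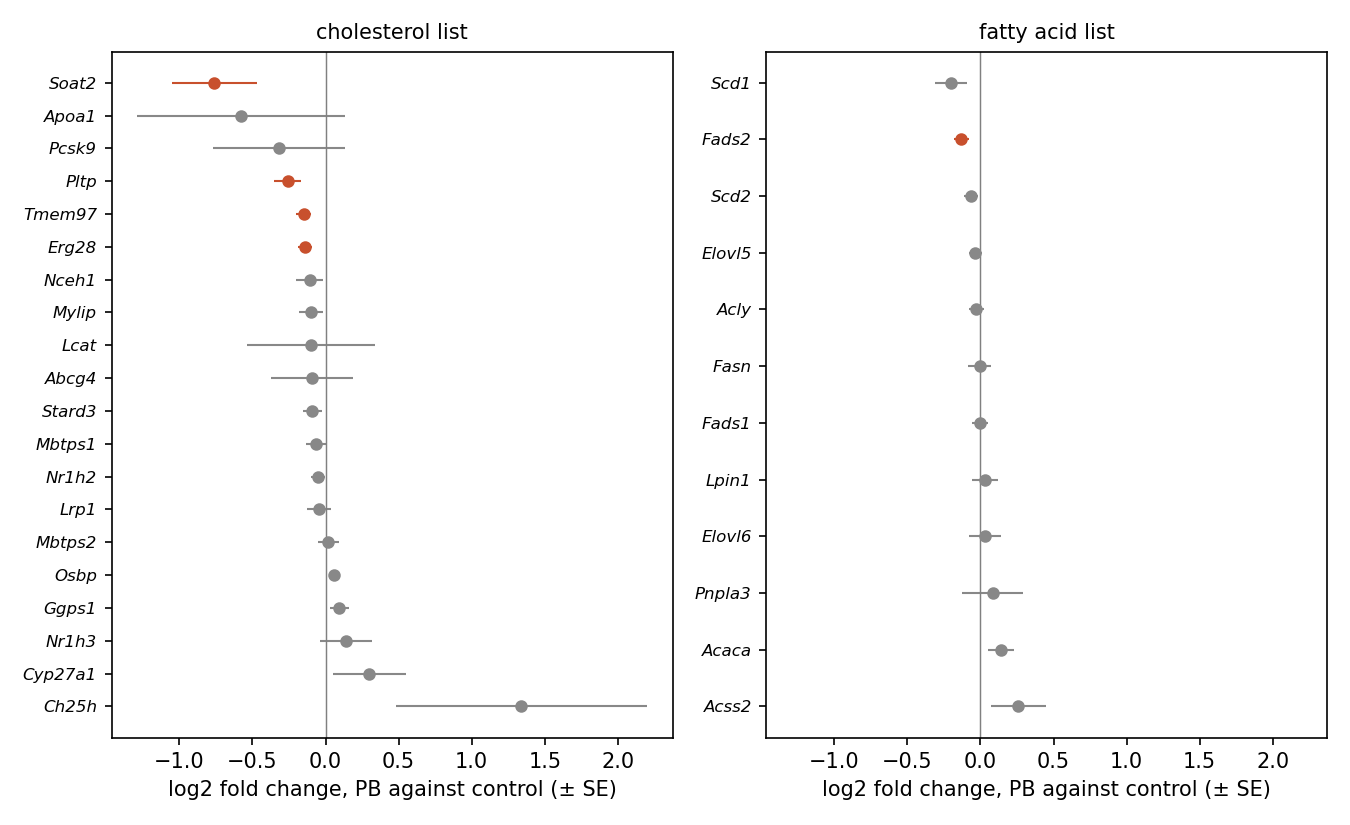
Log2 fold change of PB against control, with its SE, for 20 further cholesterol genes (left) and 12 fatty acid genes (right), ordered by value, with red points for an unadjusted p under 0.05. The red points of the left panel all lie left of 0, and Ch25h and Apoa1 carry wide errors.

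The members varied little between pools, with a median coefficient of variation of 4.78% in control and 6.03% in PB, against 8.03% and 10.4% over all genes tested. The comparison was not matched for level. Tm7sf2, the member with the lowest level, had the highest coefficient of variation, 62.4% in control and 46.3% in PB. The PB pools were not alike across the set. PB 2 was the highest PB pool for 23 of the 32 genes, including 15 of the 18 synthesis genes, and PB 3 the lowest for 21, including 13 synthesis genes. Relative to the control mean, the median synthesis gene lay at -0.15, -0.081 and -0.19 log2 units in PB 1, 2 and 3 and at 0.029, -0.024 and -0.012 in control 1, 2 and 3. Without PB 2, 16 members had an unadjusted p under 0.05, in place of 11, while over all genes the number went from 867 of 19435 to 2441 of 19821, a larger rise in proportion. The median of the synthesis genes was then -0.15.

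Markers of the cell types of the ovary were compared beside these values. The pools held the markers their label calls for, with pregranulosa markers such as Foxl2 and Wnt4, which summed to 1335 to 1437 CPM in control and 1285 to 1467 CPM in PB, and germ cell markers, which summed to 637 to 849 and 549 to 937 CPM. Germ cell sums were lowest in control 2 and PB 2. Of these 8 markers Kit, Pou5f1 and Dppa3 had a p under 0.05, all lower (against 2.43% of all genes) and with an FDR of 0.888. Of these only Kit had no overlap (against 5.61% of all genes that were lower without overlap). Ddx4 (-0.036), Dazl (-0.0031) and Stra8 (-0.082) lay near 0 on the log2 scale and Sycp3 (0.34) and Mael (0.25) above it, all with overlapping groups. Macrophage markers, of interest because such cells are rich in Npc2 and Apoe, summed to 91.5 to 102 CPM in control and 82.5 to 98.3 CPM in PB, and 0 of 10 had a p under 0.05. Adgre1 (-0.18) and C1qc (-0.16) were lower without overlap (against 5.61% of all genes), and the other macrophage markers overlapped. Steroidogenic markers, of interest because such cells consume cholesterol, summed to 209 to 233 and 199 to 228 CPM, and 0 of the 7 tested had a p under 0.05. Nr5a1 made up most of these sums, with a mean of 160 CPM in control and 162 CPM in PB, so the sums mainly follow that gene. Star, Cyp17a1 and Cyp11a1 had means of 7.88, 3.57 and 3.33 CPM in control and 8.66, 3.86 and 3.41 CPM in PB, with overlapping groups. Insl3, at 0.504 and 0.892 CPM, was higher without overlap (against 5.1% of all genes). Hsd3b1 had 14.8, 45 and 39 CPM in PB 1, 2 and 3 and 42.2 to 45.6 CPM in control. Red blood cell markers summed to 15033 to 31933 CPM in control, highest in control 2, and to 18342 to 20105 CPM in PB. Of these 7 markers 1 had a p under 0.05 and was lower (against 2.43% of all genes), Hba-a2, a globin gene with a near-identical copy. Its groups did not overlap (against 5.61% of all genes), at -0.77 on the log2 scale and an FDR of 0.888. The sums overlapped between the groups for all 8 lists, which also covered endothelium, mesonephros and stroma. Emx2 made up most of the mesonephros sums (mean 132 CPM in control, 133 CPM in PB) and Col1a1 most of the stroma sums. Cdh16 had 2.72, 3.34 and 14.8 CPM in control 1, 2 and 3 and 1.9 to 3.87 CPM in PB. Pax2 and Lhx1 were also highest in control 3, unlike Pax8 and Emx2. No marker was at or under 3 counts in every pool, but Cyp11b1 had 6 counts in control 2 and 0 elsewhere. Cyp21a1 had at most 9 counts, and neither was tested. The part of PB 2 and of the cell composition in the members' values was not tested.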

How the data were processed

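RNA from 3 control and 3 PB pools of E15.5 ovaries was sequenced with a directional kit. The authors used HISAT2 2.1.0 with the mm10 genome and StringTie 1.3.5 with RefSeq, merged the assembled transcripts and deposited whole-number counts per transcript, made by prepDE from coverage without normalization. Columns of their own DESeq2 1.30.0 comparison (fold changes, p-values, normalized values) were not used. The matrix held 114412 transcripts and totals of 97165644 to 125985399 counts per pool. Transcripts without a gene name held 3.05% to 4.49% of the counts and entered no gene sum. A floor of 3 counts equals 0.0257 to 0.0319 CPM and covers counting error only.

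Gene sums and transcripts were each fitted over the whole table with edgeR 4.0.16 in R 4.3.3 (TMM, filterByExpr with minimum counts of 10 and 15, quasi-likelihood F-test, Benjamini-Hochberg FDR), with fold and FDR thresholds of 2 and 0.05. SE is the log2 fold change divided by the square root of F. The pools are biological replicates per the series text, and p-values set the group difference against the spread between them. The methods do not state whether the sequenced pools came from separate litters, so this spread cannot be read as variation between dams. The biological coefficient of variation was 20.94% for genes and 98.41% for transcripts. DESeq2 1.42.0 was an alternative, and the code was tested on simulated data. Levels per length divide each transcript's counts by its exon length. Reads shared by paralogs or overlapping genes cannot be assigned with certainty.

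The members and lists were chosen with earlier results of these data known. All 32 members are named, with the value in every pool for Npc2, Hmgcs1, each member with p under 0.05 or without overlap, and the highest per length in each role. Transcripts of these genes are given when called or holding at least 5% of the gene's counts in either group, in part as shares. Other genes of the pathway are named where p was under 0.05, and some are not reported here. Of the 21 further cholesterol genes listed, Faxdc2 was not matched by name. Fasn, Acaca, Osbp, Ch25h, Apoa1, Isca2 and the single cell type markers were named after their values were seen. No sequencing batch is named.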

Additional observations from a re-analysis of the deposited data

How the results depend on the processing

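Limits came from the division of reads among transcripts, from single pools and from small differences near the spread between pools. Genes past both thresholds numbered 3, and 11 with DESeq2's Wald test, 8 over known transcripts only, 0 with the replicate number as a block (1091 at an unadjusted p under 0.05) and 3 to 9 when each pool was left out in turn, with 9 without PB 2. Transcripts numbered 17, and 1169 with DESeq2, 39 with a stricter filter, 51 at an FDR of 0.1, 0 with the replicate block (1239 at p under 0.05) and 0 to 19 without single pools, with 0 without control 1, 1 without control 3, 2 without PB 1 and 9 without PB 3. Members at an FDR of at most 0.05 numbered 2, both chosen for their difference, and 1 over known transcripts only (Hmgcs1), 1 with length-scaled sums (Npc2), 0 with the replicate block (13 at p under 0.05) and 1 to 2 without single pools, where Npc2 passed in all 6 fits and Hmgcs1 only without PB 2. The correlation of deviations between pools of the same number was 0.093, 0.147 and -0.018, and between pools of unlike number it was -0.167 to 0.096. With 3 pools per group these values cannot tell whether the numbers pair the pools.

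The median log2 fold change ranged from -0.15 to -0.11 for synthesis, from -0.24 to -0.045 for regulators and from -0.15 to -0.058 for transport over the alternatives. In 24 of the 32 genes the sign was the same in all 14 alternatives. The sign turned for Fdps (0.15 over known transcripts, 0.0036 length-scaled), Soat1 (0.082 over known transcripts) and Acat2 (-0.0023 with DESeq2, -0.0022 with its size factors, -0.056 length-scaled, -0.0027 without a filter, -0.0013 with the stricter filter). Without single pools it turned for Acat2 (-0.075 to 0.057), Scap (-0.051 to 0.059), Mvk (-0.12 to 0.041), Pmvk (-0.14 to 0.035), Ebp (-0.14 to 0.0052) and Lipa (-0.018 to 0.023). The cause was not tested.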
